A study of Mus musculus with 2 samples.

Results

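The MAP4K family kinases were the 7 genes *Map4k1*, *Map4k2*, *Map4k3*, *Map4k4*, *Map4k5*, *Mink1* and *Tnik*, taken by gene symbol from the 32285 genes counted in each library. RNA of all 7 was counted in both libraries as unique molecular identifiers (UMIs), short random tags that let copies of 1 captured molecule be counted once. The question was which of these paralogs stood beside *Map4k4* in each stage of mouse marrow, and whether their levels differed once *Map4k4* was targeted. Bone marrow of mice of 13 to 14 weeks was profiled by droplet-based 3′ single-cell RNA sequencing in 2 libraries, 1 labelled control (Ctrl) and the other *Map4k4*-cKO (cKO). In both, c-Kit+ cells and red-cell-lysed marrow were mixed at a ratio of 2 to 3. The cKO mice carried Mx1-Cre and *Map4k4* f/f and received poly I:C some weeks earlier. The study's methods write the control littermates as Mx1-Cre *Map4k4*-/-, on the same C57BL/6 background, and do not say whether they received poly I:C. The study also calls the control cells wildtype, and it does not state what -/- stands for in that notation. Mx1-Cre, which both genotypes carry as written, is switched on by interferon and acts in blood cells and in other tissues. The number of mice behind each library is not given in the sources used here. With 1 library per group no difference had a replicate check, and every interval below is an exact 95% interval that covers counting error only.

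MAP4K proteins are serine/threonine kinases of the Ste20 group. Their founding member, the yeast kinase Ste20, stands above a MAP kinase cascade, and several MAP4Ks can activate the JNK pathway through MAP3Ks. They fall into 2 branches, 1 with *Map4k1* (HPK1, best known as a brake on T and B cell receptor signalling), *Map4k2*, *Map4k3* (GLK) and *Map4k5* (KHS1), and the other with *Map4k4* (HGK), *Mink1* (MINK) and *Tnik*, a kinase also known from Wnt signalling. Members of both branches can also phosphorylate the LATS kinases of the Hippo pathway beside MST1 and MST2.

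The members are spread over the genome. In GRCm38 with GENCODE vM21, *Map4k4* (ENSMUSG00000026074) lies at chr1:39900913-40026310 on the plus strand, *Mink1* (ENSMUSG00000020827) at chr11:70562881-70614483 on the plus strand and *Tnik* (ENSMUSG00000027692) at chr3:28263214-28675858 on the plus strand. *Map4k1* (ENSMUSG00000037337) lies at chr7:28982050-29003279 and *Map4k2* (ENSMUSG00000024948) at chr19:6341135-6355615, both on the plus strand, and *Map4k3* (ENSMUSG00000024242) at chr17:80580512-80728485 and *Map4k5* (ENSMUSG00000034761) at chr12:69803750-69893200, both on the minus strand. To show how close the paralogs are in a stretch that all 7 hold, the coding sequence of the kinase activation segment is given below. The segment runs from the codons of the DFG motif to those of the APE motif, as found by translating the longest annotated coding transcript of each gene. It is 84 bases long in all 7 genes. Capitals mark bases that differ from *Map4k4* in a global alignment of each pair that allowed gaps. A lower-case base can therefore match a neighbouring base of *Map4k4* and differ from the base printed at the same position.
Map4k4: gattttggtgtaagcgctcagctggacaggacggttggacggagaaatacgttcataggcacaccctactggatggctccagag
Mink1: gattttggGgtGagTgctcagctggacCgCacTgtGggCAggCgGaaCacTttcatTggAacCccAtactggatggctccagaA
Tnik: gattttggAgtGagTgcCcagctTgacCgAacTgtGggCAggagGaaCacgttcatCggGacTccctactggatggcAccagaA
Map4k5: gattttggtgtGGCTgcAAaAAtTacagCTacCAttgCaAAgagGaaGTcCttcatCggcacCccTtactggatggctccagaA
Map4k2: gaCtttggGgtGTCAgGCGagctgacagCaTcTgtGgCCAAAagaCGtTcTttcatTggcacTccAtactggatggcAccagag
Map4k1: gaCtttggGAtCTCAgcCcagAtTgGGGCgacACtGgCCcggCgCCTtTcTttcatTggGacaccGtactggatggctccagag
Map4k3: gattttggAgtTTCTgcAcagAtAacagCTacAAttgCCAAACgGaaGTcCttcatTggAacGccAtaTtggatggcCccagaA
*Mink1* and *Tnik* each shared 66 of the 84 bases with *Map4k4* (78.6%) and 73 with each other (86.9%). The 4 members of the other branch shared fewer with *Map4k4*, from 55 bases in *Map4k3* (65.5%) to 60 in *Map4k5* (71.4%). *Map4k3* and *Map4k5* shared 68 (81.0%). All these counts are of bases matched in alignments that allowed gaps, and compared position by position they can be lower. In *Map4k4* (chr1:39983141-39983224), *Mink1* (chr11:70602685-70602768) and *Tnik* (chr3:28541970-28542053) the segment lay within 1 exon, and in the 4 genes of the other branch it was split over 2. In the last 500 bases of the same transcripts no run of more than 11 identical bases was shared by any pair of members. A 3′ library reads the end of a molecule, but these transcripts were chosen for their coding length. In *Tnik* 4080 of the 4404 bases are coding, so its stretch includes coding bases. Whether the stretches are those read in these libraries was not tested.

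Of 10220 Ctrl and 6872 cKO barcodes, 9965 and 6718 passed the filters on genes and mitochondrial UMIs, with 71282090 and 64241692 UMIs, and 3010 barcodes occurred in both libraries. Marker scores placed 8370 Ctrl and 4899 cKO cells in 19 gates, none of which used a member as a marker. The gates are called by the class of their markers and hold cells like that class. Of these gates, 14 held at least 20 cells in each library, with median depths of 834 to 16770 UMIs per cell in Ctrl and 871 to 29986 in cKO. In each of them the genes that stood out most included at least 3 of the gate's own markers, and no other class had more. In GMP of Ctrl the ProMon class had as many, 3 each, with *F13a1*, *Ms4a6c* and *Ly86*. Levels are given as UMIs of a gene per 1000000 UMIs of its gate (CPM). A 3′ library reads each molecule once, so its UMIs do not grow with transcript length, and the order of members is also given per length where that changed it. Free RNA can bring markers of other cells into any droplet, and such markers differed between the libraries. In the mNeu gate, the 11 erythroid markers summed to 587 CPM in Ctrl and 58.8 in cKO, the 11 plasma cell markers to 1025 and 185, and the 12 HSC/MPP markers to 43.1 and 10.6. The 13 mNeu markers went the other way in progenitor gates. They summed to 1000 CPM in Ctrl and 2035 in cKO in HSC/MPP, and to 866 and 1631 in GMP, with 9 of 13 higher in cKO in each.

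Over all kept cells the family had 16933 UMIs in Ctrl (238 CPM) and 12059 in cKO (188 CPM), and 2 members made up most of them. *Map4k2* was the most abundant member, with 6694 UMIs in Ctrl (93.9 CPM) and 5213 in cKO (81.1 CPM). *Map4k4*, the targeted gene, followed with 5176 UMIs in Ctrl (72.6 CPM) and 4132 in cKO (64.3 CPM), which as log2 of cKO divided by Ctrl (the log2 ratio in what follows) was -0.17 (-0.23 to -0.12). Which exon was floxed is not given in the sources used here. A 3′ tag outside a deleted exon need not fall with the deletion, so this level checks neither the labels nor the loss of the protein. *Map4k1* had 33.6 CPM in Ctrl and 26.9 in cKO. The other members were at 13.8 and 6.60 CPM (*Mink1*), 11.9 and 4.89 (*Map4k5*), 8.35 and 2.10 (*Tnik*) and 3.38 and 1.73 (*Map4k3*).

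**Figure D1:**
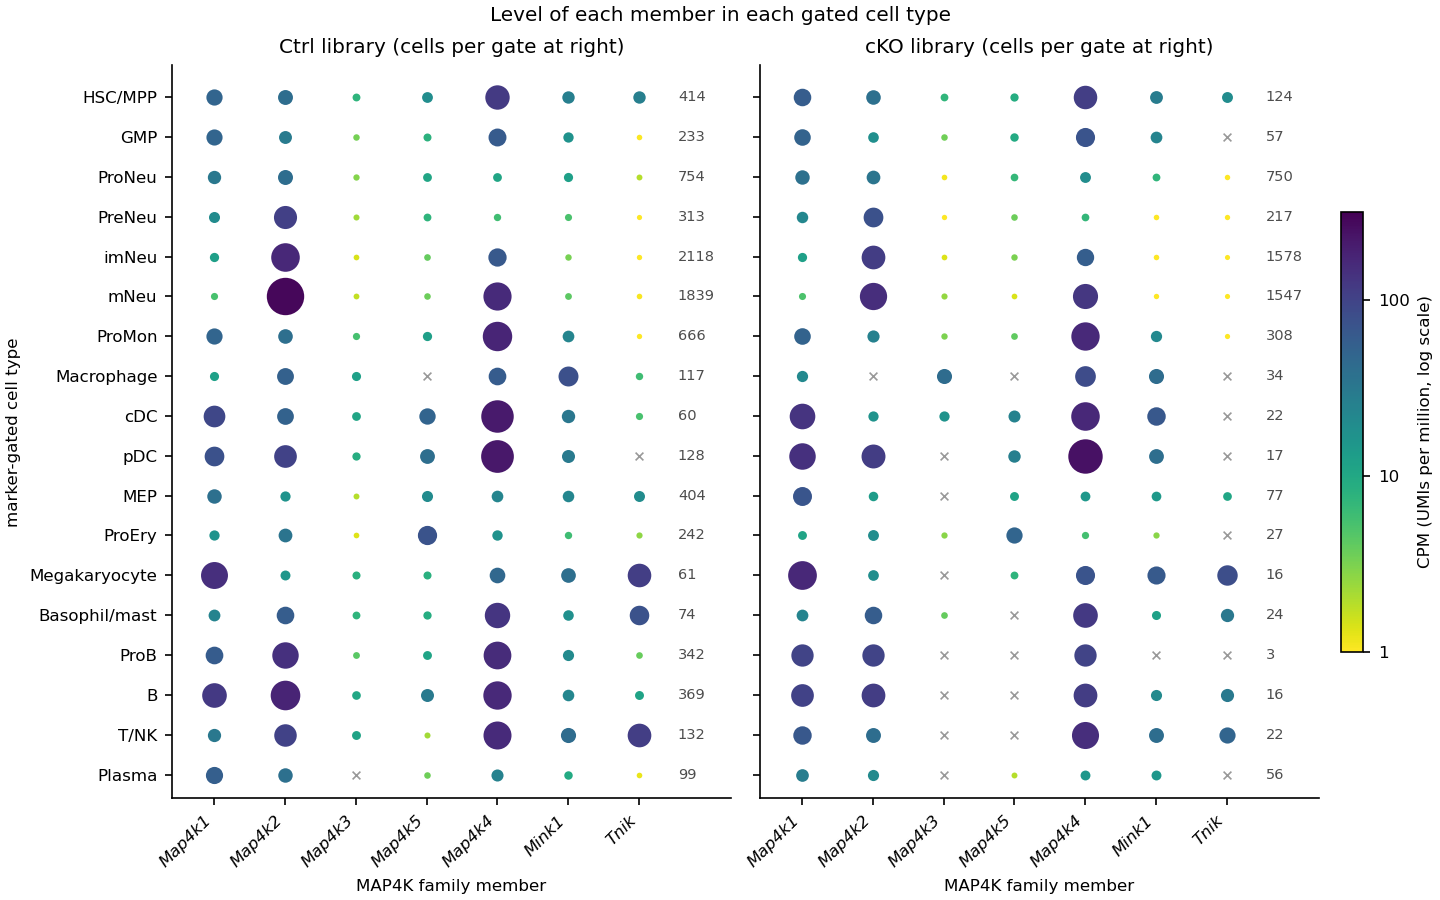
Level of the 7 members (columns) in 18 marker-gated cell types (rows) of the Ctrl and the cKO library, as CPM by dot area and colour (log scale), with a cross where no UMI was counted and the number of cells at the right. *Map4k4* was high at both ends of the neutrophil path and low in ProNeu and PreNeu, *Map4k2* was highest in mNeu, and *Tnik* was high in few gates, among them Megakaryocyte and T/NK.

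Along the neutrophil path *Map4k4* followed a U shape in both libraries. It had 119 CPM (109 to 129, from 570 UMIs) in the HSC/MPP gate of Ctrl, which holds stem and multipotent progenitors, and 110 CPM (95.5 to 127, from 198 UMIs) in that of cKO. In granulocyte-monocyte progenitors (GMP) it was at 61.8 CPM in Ctrl and 71.1 in cKO. The lowest levels were those of ProNeu and PreNeu. ProNeu, the granule-making gate, had 10.7 CPM in Ctrl (137 UMIs) and 19.4 in cKO (260 UMIs). PreNeu had 5.85 CPM in Ctrl (26 UMIs) and 7.03 in cKO (29 UMIs). The genes that stood out most in PreNeu included the cell-cycle genes *Rrm2*, *Pclaf* and *Tk1* in cKO only, and *Chil3* and *C3* in Ctrl only. *Hsd11b1* stood out in both libraries. Whether this gate holds the same cells in both libraries was not tested. *Map4k4* was thus sparse in PreNeu in both libraries, where 25 of 313 Ctrl cells and 26 of 217 cKO cells held a UMI of it. In immature neutrophils (imNeu) it had returned to 64.6 CPM in Ctrl and 57.6 in cKO, and in mature neutrophils (mNeu) it reached 161 CPM in Ctrl (150 to 173) and 127 in cKO (120 to 134). Each of the 5 steps went the same way in both libraries beyond counting error, the steepest being from PreNeu to imNeu, with a log2 change of 3.47 (2.90 to 4.09) in Ctrl and 3.04 (2.51 to 3.62) in cKO.

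*Map4k2* took the opposite course from *Map4k4* between GMP and PreNeu. It fell from HSC/MPP (41.2 CPM in Ctrl, 39.0 in cKO) to GMP (29.5 and 18.2) and then rose at every step. Its levels were 41.6 CPM in ProNeu, 106 in PreNeu, 166 in imNeu and 287 in mNeu of Ctrl. In cKO they were 34.0, 76.3, 112 and 150 CPM in the same order, from 456, 315, 2318 and 1407 UMIs. Each of these steps exceeded counting error in both libraries. *Map4k1* went down the path instead, from 49.8 CPM in HSC/MPP and 49.3 in GMP to 31.7 in ProNeu (405 UMIs), 12.5 in imNeu (178 UMIs) and 5.30 in mNeu of Ctrl. In cKO it went from 59.1 and 52.0 CPM to 38.2 in ProNeu, 22.1 in PreNeu, 12.4 in imNeu and 5.12 in mNeu.

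**Figure D2:**
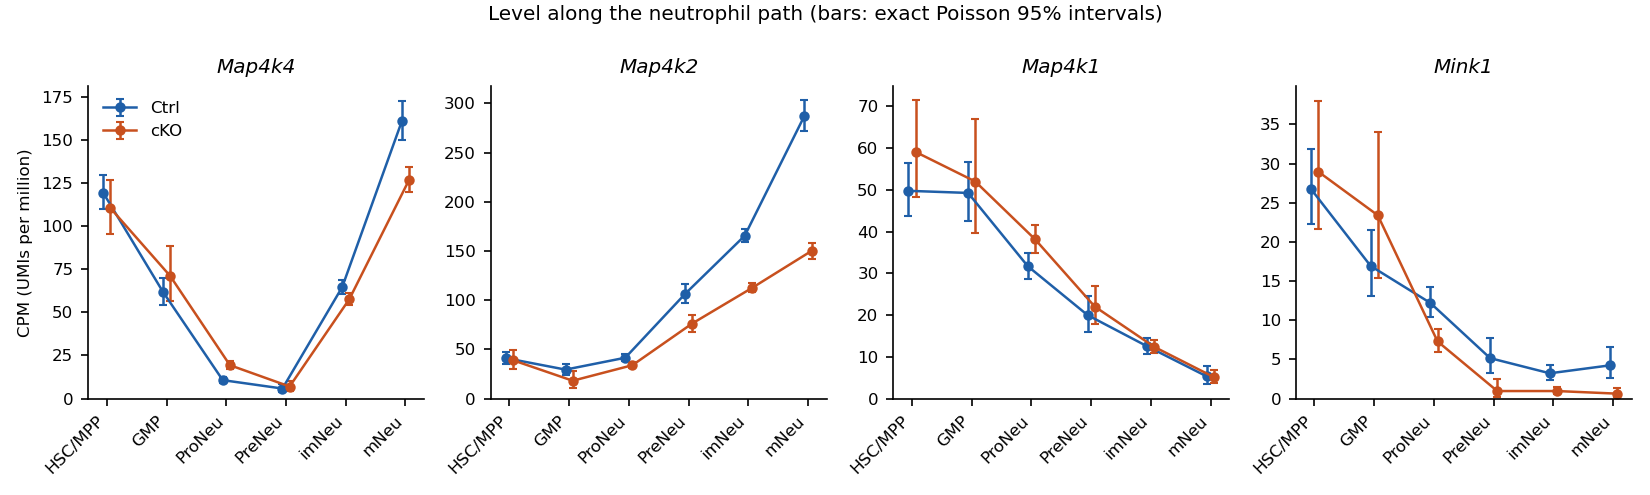
CPM of *Map4k4*, *Map4k2*, *Map4k1* and *Mink1* (vertical axes, each from 0) in the 6 gates of the neutrophil path in order of maturation, for Ctrl (blue) and cKO (orange), with exact Poisson 95% intervals as bars. *Map4k4* had its lowest level of these gates in PreNeu (5.85 and 7.03 CPM), where *Map4k2* stood at 106 and 76.3 CPM.

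In Ctrl the 4 rarer members had their highest levels of the path in HSC/MPP. *Mink1* went from 26.8 CPM in HSC/MPP of Ctrl to 16.9 in GMP, 12.2 in ProNeu, 5.17 in PreNeu, 3.24 in imNeu and 4.24 in mNeu, and in cKO from 29.0 to 23.4, 7.31, 0.97, 0.97 and 0.64. *Map4k5* was at 19.0 CPM in HSC/MPP of Ctrl and 8.92 in cKO, at 10.8 and 6.86 in ProNeu and at 3.61 and 1.39 in mNeu. *Tnik* dropped after the first stage, from 128 UMIs in HSC/MPP of Ctrl to 4 in GMP and from 35 to 0 in cKO, where a limit of 3 counts for 0 UMIs allows up to 2.60 CPM. *Map4k3* had 36 and 13 UMIs in HSC/MPP (7.53 and 7.25 CPM) and at most 37 UMIs in any later stage.

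The paralog beside *Map4k4* changed from stage to stage. In HSC/MPP *Map4k4* held 41.1% of the family's UMIs in Ctrl (38.5% to 43.7%) and 40.4% in cKO, followed by *Map4k1* with 17.1% and 21.6%, and each of the 7 members was present. In GMP *Map4k4* held 36.4% and 40.0%, with *Map4k1* close behind at 29.0% and 29.3%, and in cKO the pair were not apart beyond counting error. In ProNeu no member held more than 37.2%, with *Map4k2* at that share and *Map4k1* at 28.4% in Ctrl and *Map4k1* at 35.5% and *Map4k2* at 31.6% in cKO, while *Map4k4* held 9.59% and 18.0%. In PreNeu *Map4k2* alone held 72.2% and 68.8%, and *Map4k4* 3.97% and 6.33%. *Map4k2* led in imNeu as well, with 65.8% in Ctrl and 59.8% in cKO beside 25.6% and 30.7% of *Map4k4*. In mNeu *Map4k2* held 61.9% and 52.4% beside 34.6% and 44.2% of *Map4k4*, so that all other members shared less than 4% of the family. Divided by transcript length, *Map4k1* came before *Map4k4* in GMP of both libraries and in HSC/MPP and cDC of cKO, and before *Map4k2* in ProNeu of Ctrl. *Map4k2* kept the first place per length in PreNeu, imNeu and mNeu. After thinning to 1000 UMIs, *Map4k1* came first in GMP of Ctrl and *Map4k2* in ProNeu of cKO.

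**Figure D3:**
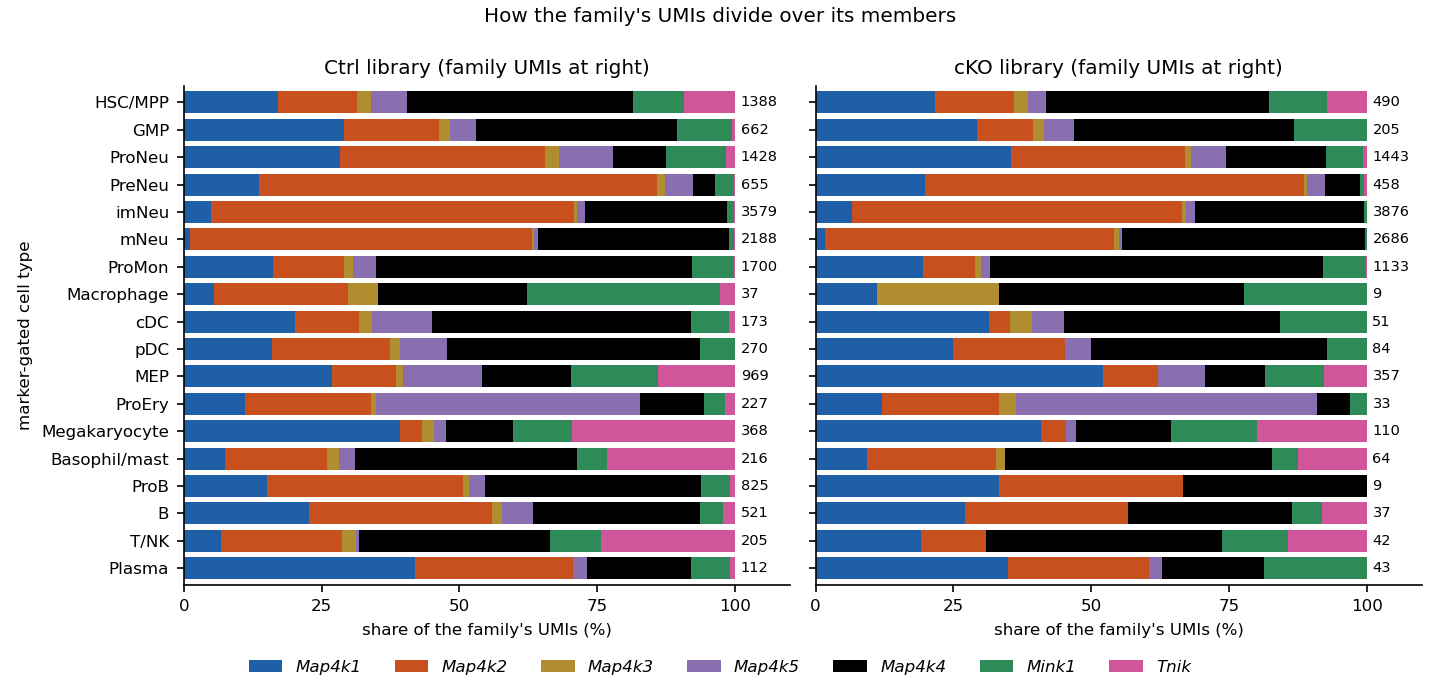
Share of the family's UMIs (%, horizontal axis) taken by each member in 18 gates of the Ctrl and the cKO library, with the number of family UMIs at the right. *Map4k2* took 72.2% and 68.8% in PreNeu, *Map4k4* 57.4% and 60.5% in ProMon, and *Map4k5* 48.0% and 54.5% in ProEry.

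Single cells held few family UMIs. With every cell thinned at random to 1000 UMIs, and the 1170 Ctrl and 1371 cKO cells below that depth left out, 24.1% of Ctrl and 18.2% of cKO cells held 1 member and 2.72% (2.39% to 3.08%) and 1.55% (1.24% to 1.92%) held 2 or more. *Map4k2* was seen in 25.4% of thinned mNeu cells in Ctrl and 13.6% in cKO, and *Map4k4* in 13.1% and 12.1%. In PreNeu, where *Map4k2* was seen in 11.3% and 9.86% of thinned cells, *Map4k4* was seen in 1.61% and 0.47%, from 5 and 1 cells. How much of this free RNA gives was not tested. Without thinning, 298 of the 543 Ctrl mNeu cells with a *Map4k4* UMI held another member (54.9%), as did 439 of 685 in cKO (64.1%). Among mNeu cells without *Map4k4* these shares were 49.5% and 47.9%, at medians of 2001 and 4406 UMIs per cell against 3013 and 7517 in the cells with it. Depth moved with co-detection, and its part was not tested.

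The return of *Map4k4* could be placed within the imNeu gate. Cells of both libraries were divided into 4 equal parts by their score for the 13 mNeu markers, which do not include a member. From the lowest to the highest part *Map4k4* went from 11.5 to 34.8, 117 and 214 CPM in Ctrl and from 12.4 to 40.4, 90.3 and 151 CPM in cKO. In Ctrl the lowest part was near the level of ProNeu (10.7 CPM), and in cKO below it (19.4 CPM). The highest part was above mNeu in both libraries (161 and 127 CPM). *Map4k2* changed less over the same parts, from 129 to 244 CPM in Ctrl and from 84.9 to 148 in cKO. *Map4k1* was between 5.63 and 15.8 CPM in Ctrl and between 10.2 and 13.3 in cKO. The median depth fell with the score, from 11767 to 3714 UMIs per cell in Ctrl and from 19654 to 8740 in cKO.

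**Figure D4:**
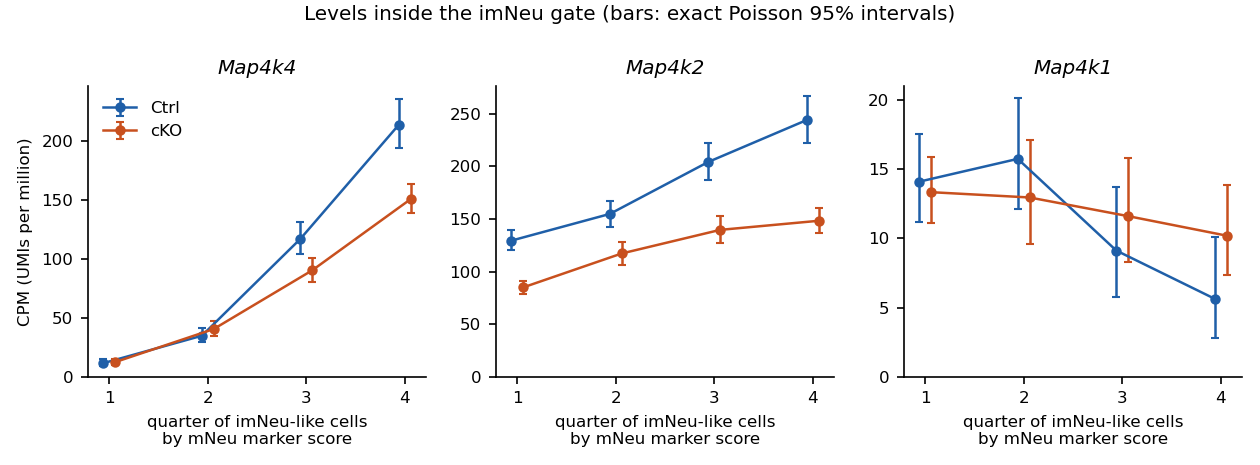
CPM of *Map4k4*, *Map4k2* and *Map4k1* (vertical axes, each from 0) in 4 equal parts of the imNeu gate ordered by mNeu marker score (horizontal axis), for Ctrl (blue) and cKO (orange), with exact Poisson 95% intervals as bars. *Map4k4* rose from 11.5 to 214 CPM in Ctrl and from 12.4 to 151 CPM in cKO.

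Outside the neutrophil path, *Map4k4* had the most UMIs of the members in ProMon, T/NK, pDC, cDC and Basophil/mast of both libraries, although it was not apart from the next member beyond counting error in T/NK of either library and in pDC and cDC of cKO. Monocyte progenitors and monocytes (ProMon) had 176 CPM in Ctrl (976 UMIs) and 163 in cKO (685 UMIs), 57.4% and 60.5% of the family. Plasmacytoid dendritic cells (pDC) had its highest level in each library, 219 CPM (182 to 261) in the 128 Ctrl cells and 243 (170 to 336) in the 17 cKO cells. Conventional dendritic cells (cDC) followed in Ctrl with 216 CPM, and had 165 in cKO. In Ctrl, the neighbours in the order from pDC through cDC, ProMon, B, mNeu and T/NK to ProB (156 CPM) did not differ beyond counting error. T/NK cells had 159 and 148 CPM and basophils and mast cells 130 and 122. Erythroid gates were low, with 23.1 and 14.7 CPM in MEP (megakaryocyte-erythroid progenitors) and 17.2 and 5.54 in ProEry, the latter from 2 UMIs in cKO. B and ProB cells, with 369 and 342 cells in Ctrl but 16 and 3 in cKO, held *Map4k2* (178 and 141 CPM) and *Map4k4* (163 and 156 CPM) at levels that were not apart in Ctrl.

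The remaining members each had their own high gates. *Map4k1* was highest in megakaryocytes, with 147 CPM in the 61 Ctrl cells (144 UMIs) and 168 in the 16 cKO cells (45 UMIs). In Ctrl it was next highest in B cells, with 122 CPM (118 UMIs). It also led in MEP, with 38.3 CPM in Ctrl and 69.9 in cKO, although *Map4k4* came first in MEP of Ctrl after thinning to 1000 UMIs and as a mean of per-cell proportions. *Tnik* was high in T/NK cells (112 and 49.4 CPM), megakaryocytes (111 and 82.0) and basophils and mast cells (74.5 and 31.4), and lower in HSC/MPP (26.8 and 19.5) and MEP (19.8 and 10.5). In neutrophils from PreNeu on it never exceeded 1.06 CPM in either library, the level of 5 UMIs in mNeu of Ctrl. *Map4k5* was the leading member of 1 gate, haemoglobin-rich ProEry, with 72.1 CPM in Ctrl (109 UMIs) and 49.9 in cKO (18 UMIs). In Ctrl its next highest gate was cDC with 50.6 CPM (19 UMIs). In cKO few UMIs of it were counted in dendritic cells, 3 in cDC (24.8 CPM) and 4 in the 17 pDC cells. *Mink1* had 26.8 and 29.0 CPM in HSC/MPP, 42.5 and 41.1 in T/NK and 39.7 and 63.3 in megakaryocytes. Its 78.0 CPM in Macrophage of Ctrl, its highest value there, rested on 13 UMIs in 117 cells with a median of 834 UMIs. *Map4k3* was the rarest member, at 241 UMIs in Ctrl and 111 in cKO. In the 13 gates with enough UMIs the log2 level of *Map4k4* correlated at r = 0.97 between the libraries, that of *Map4k2* at 0.92, *Map4k1* at 0.89 and *Map4k3* at 0.57, as a description across gates that share libraries and depth.

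Stem cells were looked at within the HSC/MPP gate. The 303 Ctrl and 95 cKO cells with a UMI of *Hlf* or *Mecom*, regulators of stem cells and themselves markers of this gate, had 127 and 125 CPM of *Map4k4*, and the 111 and 29 cells without had 97.5 and 60.5. *Tnik* was at 29.3 and 19.6 CPM in the former and 19.5 and 19.4 in the latter. The intervals of *Tnik* overlapped between the libraries in both sets of cells.

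Between the libraries, *Map4k4* was higher in cKO in 1 stage of the neutrophil path beyond counting error and lower in 2. A gene was counted as past 2-fold when its CPM differed that much, among genes with at least 50 UMIs over both libraries in a gate. In ProNeu, *Map4k4* was at 10.7 CPM in Ctrl and 19.4 in cKO, a log2 ratio of 0.85 (0.55 to 1.16), which is not past 2-fold. The median of all 10201 genes was -0.28. Of these genes 99.5% lay below the ratio of *Map4k4*, and 0.314% were past 2-fold higher. The ratios of *Map4k4* were -0.11 (-0.35 to 0.12) in HSC/MPP, 0.20 (-0.18 to 0.57) in GMP and 0.27 (-0.55 to 1.09) in PreNeu. They were -0.16 (-0.29 to -0.04) in imNeu and -0.34 (-0.48 to -0.21) in mNeu. The medians of all genes in imNeu and mNeu were -0.38 and -0.43, so that relative to them *Map4k4* was higher in cKO by 0.22 and 0.09. The difference between stages was not tested, as there is 1 library per group.

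Markers of other cells were measured beside the ProNeu value. In that gate the 13 mNeu markers summed to 666 CPM in Ctrl and 895 in cKO, with 8 of 13 higher in cKO, and the 10 ProMon markers to 317 and 353, with 8 of 10 higher. The 12 HSC/MPP markers summed to 174 and 121, with 2 of 12 higher. At the ratio of *Map4k4* to the same markers in their own gates, the mNeu markers would carry 2.23 CPM of *Map4k4* in Ctrl and 1.93 in cKO. The ProMon markers would carry 6.57 and 6.21, the HSC/MPP markers 8.82 and 6.29 and the imNeu markers 3.18 and 2.77. In PreNeu the imNeu markers would carry 45.4 and 39.1 CPM, where 5.85 and 7.03 were counted in all. This reckoning thus does not measure how much *Map4k4* came from other cells, and nothing is read from it. The part of such cells in the ProNeu value was not tested. ProNeu cells were divided into 4 equal parts by the score of each of the mNeu, imNeu, GMP, HSC/MPP and ProMon lists, and *Map4k4* was higher in cKO in all 20 parts, with the interval above 0 in 16. These are 5 divisions of the same cells and UMIs, not separate checks. Depth and cell numbers could differ between the libraries within a part. In the part with the highest HSC/MPP score the medians were 14706 UMIs in Ctrl and 1223 in cKO, and in part 3 by GMP score 16721 and 16889. The part with the highest mNeu score held 99 Ctrl and 277 cKO cells. The part of depth in these ratios was not tested. The lowest ratio, 0.10 (-0.90 to 1.14), was that of the part with the highest mNeu score, from 15 and 23 UMIs. *Map4k4* was seen in 115 of 754 Ctrl cells (15.3%) and 166 of 750 cKO cells (22.1%), but after thinning to 1000 UMIs in 12 of 749 (1.60%) and 9 of 685 (1.31%), so that no order can be read from these shares at this depth. Shallow cells were also more frequent in cKO, since 65 of its 750 ProNeu cells and 5 of the 754 in Ctrl had under 1000 UMIs, and without them the ratio was 0.83. Without the 2% deepest cells of each library it was 0.70.

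*Map4k2* was lower in cKO in each stage from GMP on, with the interval below 0 in 5 of 5, except that as a mean of per-cell proportions its ratio turned to 1.17 in GMP and 0.16 in ProNeu. Its log2 ratio was -0.70 (-1.44 to -0.02) in GMP, -0.29 in ProNeu, -0.48 in PreNeu and -0.56 in imNeu. It was -0.94 (-1.05 to -0.83) in mNeu, where 14.3% of 7527 genes lay below it and 12.1% were past 2-fold lower. The medians of all genes were also below 0, at -0.14, -0.28, -0.30, -0.38 and -0.43 from GMP to mNeu, and with median-of-ratios scaling *Map4k2* was at -0.026 in ProNeu, -0.24 in PreNeu, -0.19 in imNeu and -0.53 in mNeu. Cells of mNeu had a median of 2251 UMIs in Ctrl and 5738 in cKO. Among mNeu cells of 2000 to 6000 UMIs, *Map4k2* was at 276 CPM in 1016 Ctrl cells and 173 in 572 cKO cells, and *Map4k4* at 168 and 116. Among imNeu cells of that depth *Map4k2* was at 216 CPM (202 to 231) in 990 Ctrl cells and 196 (166 to 228) in 186 cKO cells, intervals that overlap, and the ratio was -0.15 in place of -0.56. *Map4k1* was higher in cKO in ProNeu (0.27, 0.08 to 0.46, but 0.030 as a mean of per-cell proportions) and in MEP (0.87, 0.59 to 1.14), where the gate held 404 Ctrl but 77 cKO cells with medians of 11774 and 29986 UMIs. In MEP, *Map4k4* (-0.65), *Map4k5* (-0.85), *Mink1* (-0.65) and *Tnik* (-0.91) were lower in cKO, with a median of all genes of -0.16. Without the 2% deepest cells of each library, the ratios of *Map4k4* and *Tnik* in MEP turned to 0.18 and 0.084 and that of *Mink1* was -0.14. As a mean of per-cell proportions that of *Map4k5* was -0.46, and that of *Map4k2*, -0.28 as reported, turned to 0.46.

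**Figure D5:**
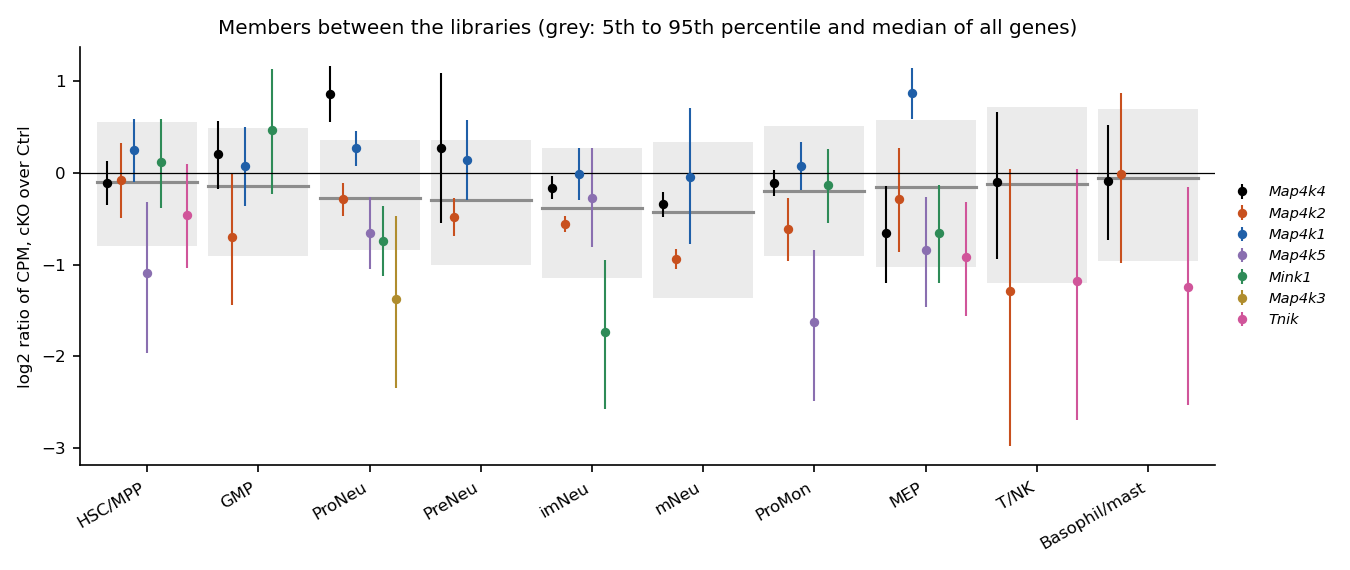
Log2 ratio of CPM, cKO over Ctrl (vertical axis), of the members with at least 50 UMIs over both libraries in 10 gates (horizontal axis), with exact 95% intervals as bars and the 5th to 95th percentile and median of all genes in grey. *Map4k4* in ProNeu (0.85) and *Map4k1* in MEP (0.87) lay above the grey range.

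Of the 98 pairs of a member and a gate, 49 reached 50 UMIs, and 7 of these were past 2-fold, all lower in cKO. Members that reached it numbered 6 in HSC/MPP, 4 in GMP, 6 in ProNeu, 3 in PreNeu, 5 in imNeu and 3 in mNeu. A pair can reach the floor through Ctrl alone, so this count supports nothing about the family. The pairs were *Map4k5* in HSC/MPP (-1.09) and ProMon (-1.62), *Map4k3* in ProNeu (-1.37), *Mink1* in imNeu (-1.74), *Map4k2* (-1.29) and *Tnik* (-1.18) in T/NK, and *Tnik* in Basophil/mast (-1.25). In T/NK, with 22 cKO cells, both intervals included 0. They were -2.98 to 0.04 for *Map4k2*, from 45 and 5 UMIs, and -2.69 to 0.04 for *Tnik*, from 50 and 6. Over the alternatives the ratio of *Map4k2* there was between -1.64 and -0.22. Genes past 2-fold lower made up 2.57% of all genes in HSC/MPP, 3.83% in ProMon, 2.38% in ProNeu, 7.47% in imNeu, 8.04% in T/NK and 4.47% in Basophil/mast, and from 3.52% (GMP) to 16.4% (cDC and Plasma) in the other gates with a tested member. *Mink1* fell from 46 UMIs (3.24 CPM) in imNeu of Ctrl to 20 UMIs (0.97 CPM) in cKO, and was at 20 and 6 UMIs in mNeu. These levels moved with the markers of other cells in the same gates, since the HSC/MPP markers summed to 33.4 CPM in imNeu of Ctrl and 8.97 in cKO, with 0 of 12 higher in cKO. The part of that background in the *Mink1* and *Tnik* values of neutrophils was not tested.

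Over all kept cells, *Tnik* (-1.99), *Map4k5* (-1.29) and *Mink1* (-1.06) were past 2-fold lower in cKO, as were 18.2% of 13120 genes. Every gate held fewer cells in cKO, which had fewer kept cells in all, so gate sizes are given as shares of kept cells. MEP made up 4.05% in Ctrl and 1.15% in cKO, T/NK 1.32% and 0.33% and Megakaryocyte 0.61% and 0.24%. ProEry, which was high in *Map4k5* only, made up 2.43% and 0.40%. Other gates went both ways, with GMP at 2.34% and 0.85% and mNeu at 18.5% and 23.0%. With the cKO gates weighted by their Ctrl shares of UMIs, the ratios were -0.75 for *Tnik*, -0.84 for *Map4k5* and -0.33 for *Mink1*. That of *Map4k4* stayed at -0.17, that of *Map4k2* went from -0.21 to -0.56, and that of *Map4k1* turned from -0.32 to 0.26. How much of any ratio came from the mix of cells was not tested.

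Other kinases and partners of the pathway were read from 4 lists. Of 16 other Ste20 kinases, 15 had enough UMIs over all kept cells, with a median log2 ratio of -0.53 beside -0.51 for all genes, and 1 was past 2-fold, lower in cKO, beside 18.2% of all genes. That was *Stk3* (MST2, a Hippo kinase), at 11.6 CPM in Ctrl and 5.15 in cKO, named after its values were seen. The most abundant were *Pak2*, a kinase regulated by Rac and Cdc42, with 185 and 160 CPM, and *Slk* with 181 and 105. *Nrk*, a further relative of *Map4k4*, was the 1 gene of this list that did not reach the floor. Of 18 JNK cascade genes, 17 had enough UMIs and 4 were past 2-fold lower over all kept cells, beside 18.2% of all genes, the AP-1 subunit *Jun* (345 and 171 CPM), *Jund*, *Mapk8* and *Map2k7*, the last 3 named after their values were seen. The median was -0.67. *Junb*, a further AP-1 subunit, was at 103 and 109 CPM. Of 12 Hippo cascade genes 8 had enough UMIs, with a median of -0.56. The highest were *Mob1a* (134 and 102 CPM) and *Sav1* (32.8 and 19.3), partners of the MST and LATS kinases, and 1 was past 2-fold higher in cKO, as were 1.18% of all genes. It was *Wwtr1*, at 16 and 50 UMIs, named after its values were seen. All 11 genes of STRIPAK, a phosphatase complex that also binds Ste20 kinases, had enough UMIs and 0 were past 2-fold, with a median of -0.46 and with *Fgfr1op2* (141 and 97.4 CPM) and *Ppp2ca* (109 and 69.3) as the highest. With the floor of 50 UMIs, no gene of these lists and no MAP4K member was past 2-fold in the same direction in 3 or more stages of the neutrophil path. Without the floor, *Mink1* was past 2-fold lower in PreNeu (-2.42, 23 and 4 UMIs), imNeu (-1.74) and mNeu (-2.73, 20 and 6 UMIs). *Tnik* was so in ProNeu (-1.33), imNeu (-3.54) and mNeu (-3.31), from at most 24 UMIs in a library, and higher in PreNeu at 1 and 2 UMIs. *Map4k5* was so in HSC/MPP (-1.09), PreNeu (-1.03) and mNeu (-1.38). Genes with the floor past 2-fold lower were 5.28% in PreNeu, 7.47% in imNeu and 12.1% in mNeu.

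The log2 levels of 9199 other genes were compared with those of the members over 31 points, each a gate in a library. Those that went most like *Map4k4* were *Gng2* (r = 0.91), *Sema4d* (0.87), *B4galt5* (0.87), *Inpp5d* (0.87) and *Mef2a* (0.85). Their products are a G protein gamma subunit, a semaphorin, a galactosyltransferase, the phosphatase SHIP1 and a transcription factor. For *Map4k2* they were *Trim11* (0.88), *Mirt1* (0.88) and *Itprip* (0.86), for *Map4k1* *Arl13b* (0.82), *Jtb* (0.82) and *Thada* (0.82), for *Map4k5* *Ncoa7* (0.83), *Casp2* (0.82) and *Net1* (0.81), and for *Mink1* *Atmin* (0.90), *Otulin* (0.88) and *Specc1l* (0.88). Between members themselves the highest r were those of *Map4k3* with *Mink1* (0.71) and *Map4k1* with *Mink1* (0.64), and the lowest that of *Map4k1* with *Map4k2* (-0.41). *Map4k4* went with *Map4k3* at 0.58, *Mink1* at 0.49, *Map4k2* at 0.36, *Map4k1* at 0.30, *Tnik* at 0.25 and *Map4k5* at -0.023. The points share libraries, depth and gates, and no p is given.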

How the data were processed

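For each library the authors deposited a matrix of raw UMI counts, genes by barcodes, made with Cell Ranger 5.0.0 on mm10 (GRCm38) per the labels. The study's methods name a doublet caller for its own clusters, and no caller was run here. A barcode was kept as a cell if it had 200 to 9000 genes detected and no more than 30% of its UMIs from mitochondrial genes. Each cell was scored for 19 marker lists as the mean log2 ratio of UMIs + 1 to the number that the average share of both libraries gives + 1, and joined the class with the highest score if that was at least 0.3, led the next by at least 0.1 and rested on at least 3 detected markers. Cell types were rebuilt in this way and may differ from those of the study. The remaining 1595 Ctrl and 1819 cKO cells stayed unassigned. Counts were summed per gate. Levels have exact Poisson intervals, shares exact binomial (Clopper-Pearson) intervals and ratios the exact binomial interval of 2 sums. They cover counting error only, and no p-value was computed. The ratio code was run on Poisson counts simulated with known folds for the ProNeu and mNeu gates. That setting holds counting error only, so it cannot check differences between cells, gates or libraries.

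Likeness was Pearson's r of log2(CPM + 10) over gates with at least 20 cells and 100000 UMIs, leaving out gate markers and mitochondrial, ribosomal, immunoglobulin and haemoglobin genes. For *Map4k4* the 5 most alike genes were named and for every other member with at least 200 UMIs in each library the 3 most alike, and of each pathway list the 2 with the highest mean CPM and any gene past 2-fold in 3 or more stages of the path. The members and lists were chosen with earlier results of these data known. Alternatives were floors of 1000 and 2000 UMIs, a mitochondrial ceiling of 10%, a lead of 0.3, other totals and scalings, transcript length and thinning. Chosen after seeing the data were leaving out the 2% deepest cells, cells of 2000 to 6000 UMIs, parts of ProNeu by marker score and the Ctrl composition. Intervals and shares were computed with Python 3.11.15, numpy 2.4.6 and scipy 1.17.1, and sequences were read from GENCODE vM21 with biopython 1.88.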

Additional observations from a re-analysis of the deposited data

Results flagged for a closer look

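*Map4k4* went in opposite directions between the libraries in different gates, each beyond counting error. Its log2 ratio of cKO over Ctrl was 0.85 (0.55 to 1.16) in ProNeu, against -0.16 (-0.29 to -0.04) in imNeu, -0.34 (-0.48 to -0.21) in mNeu and -0.65 (-1.20 to -0.14) in MEP. The difference between these gates was not tested, since each group is 1 library. In MEP it was 0.18 without the 2% deepest cells. In imNeu and mNeu the sign depended on the scaling, and in ProNeu and MEP the median of all genes was -0.28 and -0.16.

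*Map4k1* was higher in cKO in ProNeu, with a log2 ratio of 0.27 (0.08 to 0.46), or 0.030 as a mean of per-cell proportions, and in MEP, with 0.87 (0.59 to 1.14), and lower in Plasma, with -0.996 (-1.94 to -0.13) from 47 Ctrl and 15 cKO UMIs, or 0.32 as a mean of per-cell proportions. This difference was not tested either.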

How the results depend on the processing

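No paired analysis was possible because each group holds 1 library with replicate number 1 and no test was made. Of 426 recomputed log2 ratios, 388 stayed within the counting interval of the reported value, 37 moved beyond it and 1 past 2-fold reversed, *Tnik* in T/NK, from -1.18 to 0.052 as a mean of per-cell proportions. Only ratios past 2-fold could count as reversed, so the 388 and 37 include smaller ratios that changed sign. Examples are *Map4k4* in PreNeu (0.27, lowest -0.098) and HSC/MPP (-0.11, highest 0.049). *Map4k1* in imNeu kept its sign in 4 of 9 alternatives. Of 1400 recomputed levels, 147 moved. The ratio of *Map4k4* in imNeu was -0.16 as reported, -0.34 as a mean of per-cell proportions, -0.30 in cells of 2000 to 6000 UMIs and 0.20 with median-of-ratios scaling. In mNeu it was -0.34, with -0.53 in cells of 2000 to 6000 UMIs and 0.066 with median-of-ratios scaling. In ProNeu it was 0.70 to 1.12 in 8 alternatives. In the 20 parts, which re-divide the same cells and are not separate checks, it was 0.10 to 1.46 and moved in part 2 (1.32), part 3 (1.22) and part 4 (0.10) by mNeu score, part 1 (0.55) by imNeu score, part 2 (1.46) by HSC/MPP score and part 4 (0.39) by ProMon score. In cKO *Map4k4* led 7 gates, or 4 per transcript length, and *Map4k2* led 3, or 6 after thinning and 5 by per-cell mean. Cells with 2 or more members rose to 8.34% in Ctrl and 4.75% in cKO when thinned to 2000 UMIs. The share of genes past 2-fold in either direction fell with a floor of 200 UMIs to 1.11% in HSC/MPP, 1.46% in GMP, 1.004% in ProNeu, 1.97% in PreNeu, 3.66% in imNeu and 5.30% in mNeu, and with ratios centred on the median to 1.56% in ProNeu, 2.36% in PreNeu, 4.23% in imNeu and 6.97% in mNeu. Of the genes most like each member, 5 of 5 for *Map4k4* and 3 of 3 for *Map4k2* were shared with a pseudocount of 1, and 2 and 0 with Spearman's rho. Of the 3 for *Map4k1*, 1 was shared with the pseudocount and 2 with rho. For *Map4k5* these were 1 and 1 of 3, and for *Mink1* 2 and 2 of 3. Depth limits the cKO gates of under 30 cells and the PreNeu values of *Map4k4*.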
